A study of Mus musculus with 6 samples.

Results

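Border macrophage marker genes and chemokine receptor genes were examined in cultured mouse microglia that lack, or carry, the signalling enzyme gene Plcg2. The set holds 9 genes, taken by symbol from the 54347 gene rows of the deposited table, and each symbol stood on 1 row. They are the markers Pf4, Cbr2, F13a1, Folr2, Lyve1, Cd163 and Dab2 and the receptor genes Ccr1 and Ccr2. The 6 libraries are 3 of Plcg2-/- and 3 of Plcg2+/+ microglia, all from C57BL/6 littermate pups 2 to 3 days old. For both genotypes forebrains were freed of meninges and grown as mixed glia in 10% serum with 5 ng/mL GM-CSF, a growth factor for myeloid cells. Microglia were shaken off on day 12 to 13 and kept for at least 72 h in 1% serum with 0.5 ng/mL GM-CSF. A library is named by its genotype and number, as in Plcg2-/- 1. The labels leave unsaid whether the replicates are different animals or cultures, so p-values measure the spread between these libraries, which may be technical in part. Y-linked transcripts were present in some libraries of each genotype and near 0 in others, so the libraries of a genotype do not all come from the same animal.

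Border macrophages live in the meninges, around blood vessels and in the choroid plexus, at the edges of the brain, while microglia live within the tissue. Both are macrophages that depend on Csf1r, and genes for uptake receptors and matrix binding are used to tell them apart. Ccr2 marks monocytes that enter from blood. Ccr1 and Ccr2 are receptors for CC chemokines, small secreted proteins that guide leukocytes. Plcg2 encodes phospholipase C gamma 2, which acts below immune receptors such as Trem2.

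Levels are TPM, transcript abundance corrected for transcript length and scaled to 1000000 in each library. Read depth cannot be recovered from TPM and is unknown here. Plcg2 itself, the targeted gene, measured 16.0, 16.7 and 16.1 TPM in the Plcg2-/- libraries, against 45.2, 39.7 and 54.9 TPM in Plcg2+/+ (limma adjusted p = 0.00141). The macrophage receptor gene Csf1r averaged 687 ± 89.8 TPM in Plcg2-/- and 580 ± 94.4 TPM in Plcg2+/+ microglia (SD, n = 3 each). The microglial markers Tmem119 and Sall1 were low in both genotypes, with means of 0.279 and 0.206 TPM in Plcg2-/- and of 0.917 and 0.256 TPM in Plcg2+/+. Fold changes divide Plcg2-/- by Plcg2+/+ and use log2(TPM + 1), which understates the change of low genes. Of 12652 genes with a mean of at least 1 TPM, 1971 were higher and 672 lower in Plcg2-/- at a limma adjusted p below 0.05. The median of all tested genes was 0.19 on the log2 scale. After median-of-ratios scaling, which moved that median to -0.0045, 975 were higher and 993 lower (7.71% and 7.85%). Without Plcg2-/- 1 the counts were 559 and 276, without Plcg2-/- 3 they were 786 and 397, without Plcg2+/+ 1 they were 782 and 327 and without Plcg2+/+ 2 they were 940 and 409.

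Of the 9 genes, Dab2, Pf4 and Cbr2 rose in Plcg2-/- microglia, Ccr1 fell, and Folr2 and Ccr2 did not pass the test. The other 3, F13a1, Cd163 and Lyve1, stayed under the filter. Called genes were thus 3 higher and 1 lower of 6 tested, where 15.6% of all tested genes were called higher and 5.31% lower, 20.9% in all. The groups did not overlap for 4 of the 6, as was so for 43.3% of all tested genes. With so few genes above the filter these shares are a description. The median log2 fold change of the 6 was 1.11, against 0.19 for all tested genes. In bulk RNA, more cells of a type and more RNA per cell cannot be told apart.

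Dab2 had the highest level of the set in Plcg2-/- microglia. It encodes an adaptor that links cargo receptors to clathrin for endocytosis. Dab2 had 179, 134 and 204 TPM in the Plcg2-/- libraries, against 66.0, 49.6 and 71.4 TPM in the Plcg2+/+ libraries. The lowest Plcg2-/- library lay above the highest Plcg2+/+ library. The means were 172 ± 35.3 TPM in Plcg2-/- and 62.3 ± 11.3 TPM in Plcg2+/+ (SD, n = 3 each). The log2 fold change of Dab2 was 1.45 ± 0.20 (SE; limma adjusted p = 0.00496). The smallest of the 3 differences between same-numbered libraries was 1.42.

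Pf4 encodes platelet factor 4, a chemokine of platelet granules that border macrophages also express. It had 138, 103 and 126 TPM in the Plcg2-/- libraries, against 21.3, 32.4 and 33.8 TPM in the Plcg2+/+ libraries. Here too the genotypes did not overlap, and Plcg2+/+ 1 lay below the other Plcg2+/+ libraries. Pf4 averaged 122 ± 17.8 TPM in Plcg2-/- and 29.2 ± 6.88 TPM in Plcg2+/+ (SD, n = 3 each). The log2 fold change was 2.05 ± 0.20 (SE; limma adjusted p = 0.00159). Markers of platelets and megakaryocytes were low. Their 10 genes summed to 3.37 to 6.89 TPM in Plcg2-/- and 8.87 to 20.5 TPM in Plcg2+/+ libraries. Of these 10 genes, 8 stayed below 1 TPM in every library, among them Ppbp and Gp9, and the 2 tested, Treml1 and Itgb3, were lower in Plcg2-/- (limma adjusted p = 0.0238 and 0.0492). The 2 lower calls fell to 0 without any 1 of Plcg2-/- 1, Plcg2-/- 3, Plcg2+/+ 1 and Plcg2+/+ 2, and with no filter.

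Cbr2 encodes a carbonyl reductase and is a common marker of border macrophages. It had 9.17, 7.14 and 9.87 TPM in the Plcg2-/- libraries, against 0.945, 0.252 and 3.94 TPM in the Plcg2+/+ libraries. All Plcg2-/- libraries were higher, but the Plcg2+/+ libraries spread over a wide range with replicate 3 well above the others. The means were 8.72 ± 1.42 TPM in Plcg2-/- and 1.71 ± 1.96 TPM in Plcg2+/+ (SD, n = 3 each). Cbr2 had a log2 fold change of 2.07 ± 0.47 (SE; limma adjusted p = 0.0247). The call was lost without Plcg2-/- 1, 2 or 3 (limma adjusted p = 0.101, 0.0539 and 0.0894) and without Plcg2+/+ 1 or 2 (0.0893 and 0.0616). It was also lost with no filter (limma adjusted p = 0.0704) and with the level of Y-linked genes as a covariate (0.0604), where the log2 fold change was 2.07 and 2.16. Of those genes, Ddx3y measured 16.98, 0.213 and 0.229 TPM in Plcg2-/- libraries, against 0.0253, 22.9 and 30.0 TPM in Plcg2+/+ libraries, and both genotypes held libraries with and without it.

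**Figure D1:**
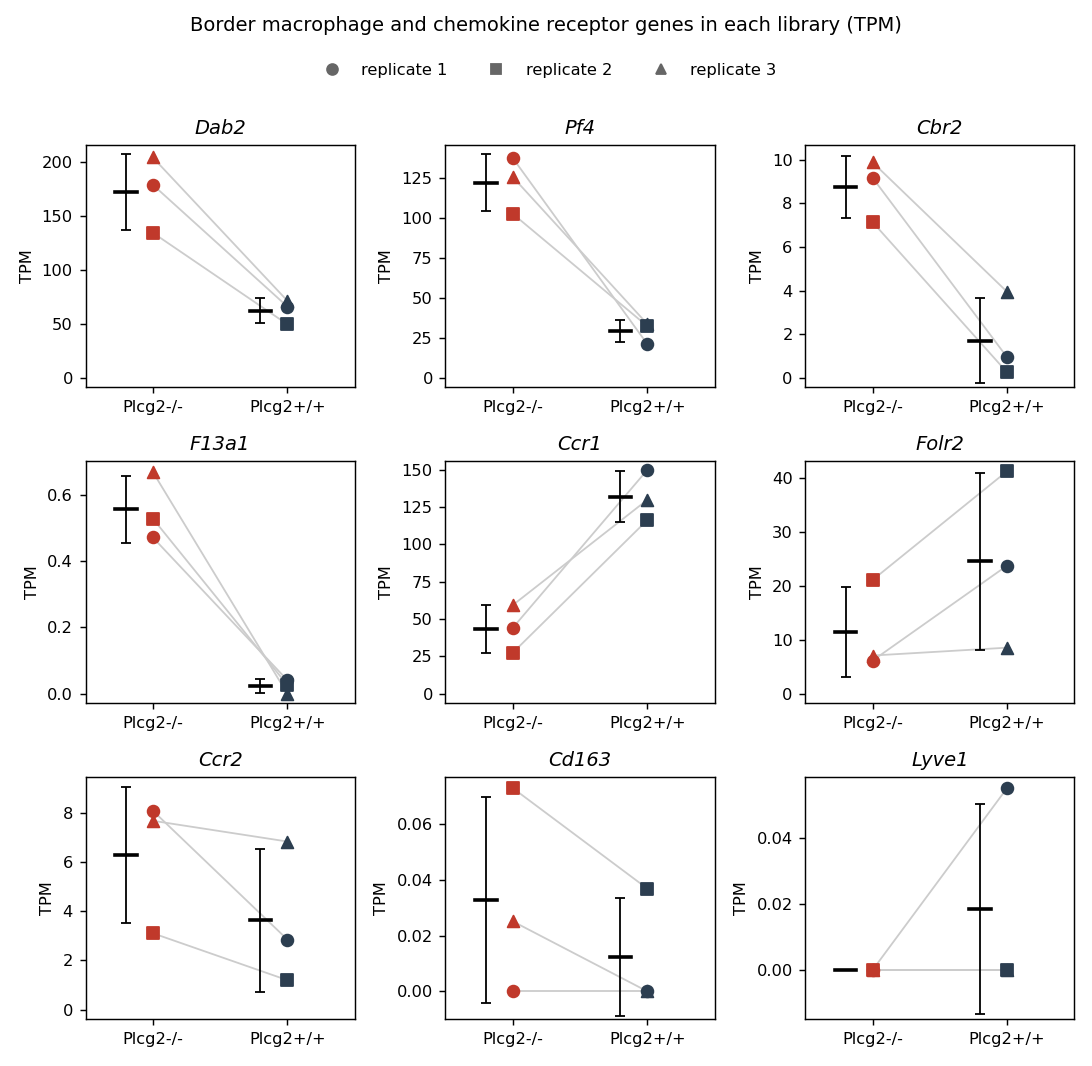
TPM of each of the 9 genes in each library, Plcg2-/- on the left and Plcg2+/+ on the right of each panel, on linear axes with their own ranges. Symbols give the replicate number, grey lines join libraries with the same number, and bars are the mean ± SD (n = 3). Dab2, Pf4, Cbr2 and F13a1 lay higher and Ccr1 lower in every Plcg2-/- library, Folr2 and Ccr2 overlapped, and Cd163 and Lyve1 stayed below 0.1 TPM.

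F13a1 encodes the A subunit of clotting factor XIII, a transglutaminase that macrophages also make. It was low, at 0.471, 0.528 and 0.669 TPM in the Plcg2-/- libraries, against 0.0409, 0.0263 and 0 TPM in the Plcg2+/+ libraries. Every Plcg2-/- library lay above every Plcg2+/+ library. Its mean of 0.289 TPM over the 6 libraries was below the filter. With no filter on low values, where 6.55% of 26346 genes were called, 4.65% higher and 1.9% lower, F13a1 had a log2 fold change of 0.60 ± 0.072 (SE; limma adjusted p = 0.0105). With a pseudocount of 0.1 TPM in place of 1 the same difference was 2.43 (limma adjusted p = 0.0143). The call was lost without Plcg2+/+ 1 or Plcg2+/+ 2 (limma adjusted p = 0.0625 and 0.0535).

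Cd163 and Lyve1 were at or near 0 in both genotypes. Cd163 encodes the scavenger receptor for haemoglobin bound to haptoglobin. It had 0, 0.0731 and 0.0252 TPM in the Plcg2-/- libraries, against 0, 0.0370 and 0 TPM in the Plcg2+/+ libraries. Lyve1 encodes a hyaluronan receptor of perivascular and meningeal macrophages and of lymphatic vessels. It was listed at 0 in 5 libraries and at 0.0551 TPM in Plcg2+/+ 1. The groups overlapped for both genes, and neither passed with no filter (limma adjusted p = 0.718 and 0.700).

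Folr2 encodes folate receptor beta, a surface receptor of tissue macrophages. It had 6.15, 21.1 and 7.09 TPM in the Plcg2-/- libraries, against 23.8, 41.3 and 8.55 TPM in the Plcg2+/+ libraries. The groups overlapped, since Plcg2-/- 2 lay above Plcg2+/+ 3. The means were 11.4 ± 8.37 TPM in Plcg2-/- and 24.5 ± 16.4 TPM in Plcg2+/+ (SD, n = 3 each), with a log2 fold change of -0.99 ± 0.62 (SE; limma adjusted p = 0.288). Leaving out 1 library gave -1.58 (without Plcg2+/+ 3) to -0.50 (without Plcg2+/+ 2). Folr2 was thus the 1 marker above the filter whose mean was lower in Plcg2-/-. Folr2 lies on GRCm38 chromosome 7, positions 101839988 to 101857194, minus strand. The antisense gene Gm10602 covers 975 of its 1546 exonic bases, and 56.9% of the 31-base words of Folr2 transcripts also stand, on the opposite strand, in Gm10602 transcripts. Gm10602 had 0.993, 1.03 and 0.566 TPM in Plcg2-/-, against 1.14, 1.71 and 0.719 TPM in Plcg2+/+. The sources used here do not say whether the libraries kept strand, and without it the reads of the 2 genes cannot be told apart where they overlap.

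Ccr1, the receptor for Ccl3, Ccl5 and related chemokines, was the called gene that fell. It had 44.1, 27.4 and 59.3 TPM in the Plcg2-/- libraries, against 149.8, 116 and 129.8 TPM in the Plcg2+/+ libraries. All Plcg2-/- libraries lay below all Plcg2+/+ libraries, with a wide gap. Ccr1 averaged 43.6 ± 16.0 TPM in Plcg2-/- and 132 ± 16.9 TPM in Plcg2+/+ (SD, n = 3 each). Its log2 fold change was -1.64 ± 0.27 (SE; limma adjusted p = 0.00902).

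Ccr2, the receptor for Ccl2, Ccl7 and Ccl12 on monocytes, was much lower. It had 8.08, 3.10 and 7.67 TPM in the Plcg2-/- libraries, against 2.85, 1.20 and 6.83 TPM in the Plcg2+/+ libraries. The groups overlapped, with Plcg2+/+ 3 close to the highest Plcg2-/- libraries. The log2 fold change was 0.76 ± 0.51 (SE; limma adjusted p = 0.312), from 6.28 ± 2.76 TPM in Plcg2-/- and 3.62 ± 2.89 TPM in Plcg2+/+ (SD, n = 3 each). Leaving out 1 library gave 0.32 (without Plcg2+/+ 2) to 1.24 (without Plcg2+/+ 3).

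Both receptor genes lie in a cluster on GRCm38 chromosome 9. Ccr1 spans positions 123962124 to 123968692 on the minus strand. Ccr2 spans positions 124101950 to 124113557 on the plus strand, 133258 bases further on, with Ccr1l1 and Ccr3 between them. Ccr1l1 was listed at 0 in all 6 libraries. Neighbours in this cluster are close relatives in sequence. Of 2803 different 31-base words in Ccr1 transcripts, 17 also stand in those of Ccr3. How reads from such shared stretches were divided was not tested.

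The other members lie on different GRCm38 chromosomes, apart from Lyve1, which shares chromosome 7 with Folr2 and spans 110850607 to 110863239 on the minus strand. Dab2 spans 6299788 to 6440712 of chromosome 15 and Pf4 90772435 to 90773383 of chromosome 5, both on the plus strand. Cbr2 spans 120729489 to 120732114 of chromosome 11 and F13a1 36867178 to 37050244 of chromosome 13, both on the minus strand, and Cd163 spans 124304656 to 124330527 of chromosome 6 on the plus strand. All 9 genes are annotated as protein coding. Cbr2 shares 15% of its 31-base words with other genes, all with Gm11771, which was listed at 0 in every library. Pf4 and Lyve1 share none, and the rest other than Folr2 share at most 3.48%.

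Promoter sequences are shown for Dab2, Pf4 and Ccr1, the 3 genes whose calls stood under all 18 alternative settings, so that genes that moved in opposite directions can be read side by side. Each line gives the 250 bases before the RefSeq start, 5′ to 3′ on the gene's strand, from GRCm38.p6. Capitals mark AGGAA or its reverse complement, the core of sites bound by ETS factors such as PU.1, the master regulator of macrophages. The windows are chr15:6299539-6299788 on the plus strand for Dab2 (first of 2 RefSeq starts), chr5:90772185-90772434 on the plus strand for Pf4 and chr9:123968693-123968942 on the minus strand for Ccr1.
Dab2: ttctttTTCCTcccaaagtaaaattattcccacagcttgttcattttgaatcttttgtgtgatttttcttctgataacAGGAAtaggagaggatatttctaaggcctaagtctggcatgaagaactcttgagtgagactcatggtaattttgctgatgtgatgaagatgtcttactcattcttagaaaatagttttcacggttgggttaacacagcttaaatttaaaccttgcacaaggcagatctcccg
Pf4: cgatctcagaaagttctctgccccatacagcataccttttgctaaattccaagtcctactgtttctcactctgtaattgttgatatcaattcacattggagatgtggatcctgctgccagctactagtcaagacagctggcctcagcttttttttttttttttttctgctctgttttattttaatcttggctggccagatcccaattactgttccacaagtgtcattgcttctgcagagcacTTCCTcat
Ccr1: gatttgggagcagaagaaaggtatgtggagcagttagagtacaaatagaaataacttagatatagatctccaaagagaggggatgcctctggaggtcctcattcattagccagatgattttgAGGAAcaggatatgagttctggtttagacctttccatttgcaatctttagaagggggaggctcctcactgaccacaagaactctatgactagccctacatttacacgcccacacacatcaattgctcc
The Dab2 window holds 2 such cores and the Pf4 and Ccr1 windows 1 each. A RefSeq promoter was found for 8 of the 9 genes, in 11 windows, and all 11 hold the core. The core is common, since 60.3% of all 32851 windows of the same length hold it. The MAF half-site TGCTGA, on either strand, stood in 3 of the 11 windows, 2 of Folr2 and 1 of Dab2, against 16.1% of all windows. No window held the interferon-type repeat (GAAA, any 2 bases, GAAA), found on either strand in 2.98% of all windows, or the E-box CACGTG, found in 6.02%. The AP-1 motif TGANTCA was in 1 window, of Folr2 (6.75% of all windows), and the STAT motif TTCNNNGAA in 1, of Dab2 (7.02%). The C/EBP-like motif TTGCNNAA stood in 2 windows, of Pf4 and Dab2, against 9.56% of all windows. These are matches of letters only.

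For several of the genes the lowest library had the same number in both genotypes. Plcg2-/- 2 and Plcg2+/+ 2 were each the lowest of their genotype for 4 of the 6 tested genes, Dab2, Cbr2, Ccr1 and Ccr2, and both were the highest for Folr2. The number of the highest library differed between the genotypes for Pf4, Ccr1 and Ccr2, and that of the lowest for Pf4 and Folr2. Between libraries with the same number, Plcg2-/- minus Plcg2+/+ had the same direction in all 3 pairs for each of the 6 tested genes, 4 of them higher and 2 lower. For Folr2 the 3 differences on the log2 scale were -1.79, -0.94 and -0.24. For Ccr2 they were 1.24, 0.90 and 0.15. Both were smallest in size in pair 3, where the Plcg2+/+ library had the highest Ccr2 and Cbr2 and the lowest Folr2 of its genotype. With the replicate block, under which 26.1% of all tested genes were called, 19.6% higher and 6.44% lower, Folr2 and Ccr2 still did not pass (limma adjusted p = 0.0631 and 0.0708), and no call of the 6 genes changed. Meningeal and fibroblast markers also differed by number. They summed to 3.06, 17.2 and 22.1 TPM in Plcg2-/- 1 to 3 and to 4.15, 20.0 and 18.3 TPM in Plcg2+/+ 1 to 3. Of these, Vtn had 1.11, 6.82 and 13.7 TPM in Plcg2-/- 1 to 3 and 1.31, 14.5 and 11.3 TPM in Plcg2+/+ 1 to 3. This was not particular to that list. Sums of neuron, oligodendrocyte and choroid plexus epithelium markers were also lowest in replicate 1 of both genotypes. The astrocyte sum was lowest in Plcg2-/- 2 and in Plcg2+/+ 1. The part of these markers in the differences between libraries was not tested.

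**Figure D2:**
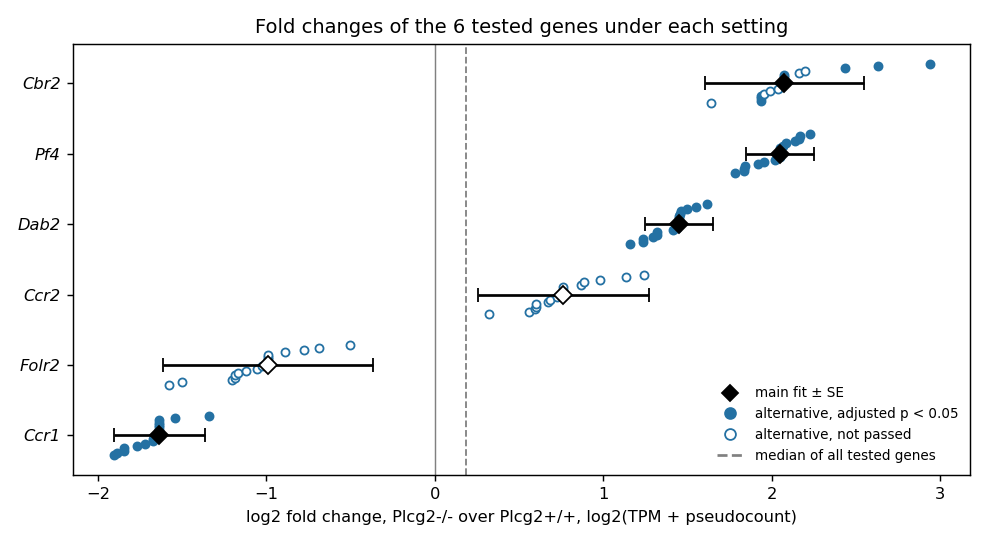
Log2 fold change, Plcg2-/- over Plcg2+/+, of the 6 tested genes, on log2(TPM + pseudocount). Black diamonds are the values reported, with SE bars, circles are the other settings, filled where the limma adjusted p was below 0.05, and the dashed line is the median of all tested genes. Pf4, Dab2 and Ccr1 were called in all of them, Cbr2 in 11 of 18, and Folr2 and Ccr2 in none.

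Among other markers of border macrophages, more genes rose than fell in Plcg2-/- microglia. Of 28 listed genes 25 were tested, and 12 rose, 1 fell and 12 did not pass. Their median log2 fold change was 0.86, against 0.19 for all tested genes. Counts in this list and those below stand beside 15.6% higher and 5.31% lower over all tested genes. The C-type lectin gene Clec10a had 25.5 ± 3.43 TPM in Plcg2-/-, against 2.17 ± 0.605 TPM in Plcg2+/+ (SD, n = 3 each; limma adjusted p = 0.000717). Ms4a4a and Ms4a6c, of the family of Ms4a7, rose by 3.66 and 2.38 on the log2 scale (limma adjusted p = 0.000717 and 0.00133). Maf, a transcription factor of tissue macrophages, had 76.1 ± 15.6 TPM in Plcg2-/-, against 17.1 ± 3.99 TPM in Plcg2+/+ (SD, n = 3 each; limma adjusted p = 0.00177). The lectin receptor gene Clec4n rose by 1.32 (limma adjusted p = 0.00347).

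The mannose receptor gene Mrc1, a defining border macrophage marker, did not pass without the replicate block. Its means were 378 ± 103 TPM in Plcg2-/- and 206 ± 51.0 TPM in Plcg2+/+ (SD, n = 3 each; limma adjusted p = 0.0599), and every Plcg2-/- library lay above every Plcg2+/+ library. The same-numbered differences of Mrc1 on the log2 scale were 0.83, 0.84 and 0.93, and it passed with the replicate block (limma adjusted p = 0.00707). The growth factor gene Igf1 differed by -0.22 (limma adjusted p = 0.467). Cd38, which encodes an NAD-consuming surface enzyme and was singled out as the 1 gene that fell, had 2.36 ± 0.792 TPM in Plcg2-/-, against 7.94 ± 0.654 TPM in Plcg2+/+ (SD, n = 3 each; limma adjusted p = 0.00582). With the replicate block 15 were higher and 1 lower, and after median-of-ratios scaling 10 were higher and 2 lower. Leaving out 1 library gave 8 to 11 higher, with 8 without Plcg2-/- 3, and 1 or 2 lower, with 2 without Plcg2+/+ 2.

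**Figure D3:**
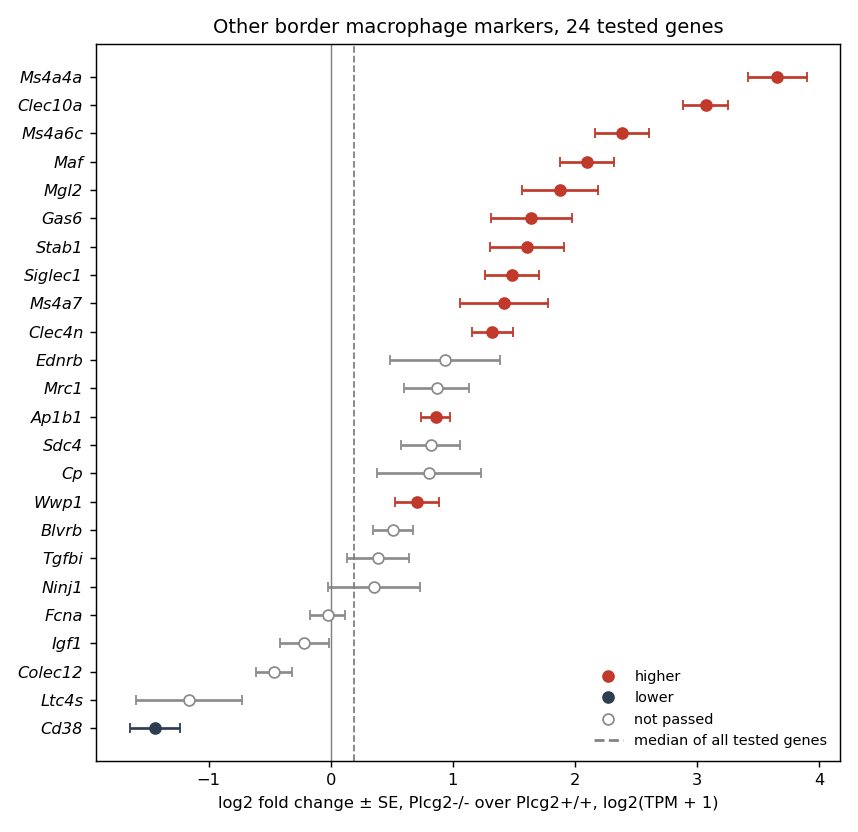
Log2 fold change ± SE, Plcg2-/- over Plcg2+/+, of 24 of the 25 tested genes among the other border macrophage markers, with the median of all tested genes as a dashed line. Red marks the 12 genes that rose, dark blue the 1 that fell (Cd38) and open grey 11 that did not pass. The values run from 3.66 for Ms4a4a to -1.44 for Cd38.

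Markers of choroid plexus and dural macrophages moved both ways. Of 13 tested 6 rose and 1 fell, and leaving out 1 library gave 5 or 6 higher and 1 lower. The class II antigen presentation genes H2-Ab1 and Cd74 rose by 2.73 and 2.18 on the log2 scale (limma adjusted p = 0.00141 and 0.00178). The gene that fell was Spp1, osteopontin, which had 1114, 3136 and 1857 TPM in the Plcg2-/- libraries, against 24333, 24708 and 19155 TPM in the Plcg2+/+ libraries (limma adjusted p = 0.00170). With Spp1 in it, the summed level of the list was 7380 to 10457 TPM in Plcg2-/- and 24346 to 31051 TPM in Plcg2+/+ libraries, opposite in direction to the count of genes.

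Monocyte markers, of which Ccr2 is 1, held 4 genes that rose and none that fell among 15 tested with limma (1 was lower at an unadjusted p below 0.05). Versican, Vcan, had 18.4 ± 6.38 TPM in Plcg2-/-, against 1.35 ± 0.524 TPM in Plcg2+/+ (SD, n = 3 each; limma adjusted p = 0.00163). The integrin gene Itga4 rose by 1.58 and the orphan receptor gene Gpr141 by 2.69 on the log2 scale (limma adjusted p = 0.00277 and 0.00357). The calcium-binding protein gene S100a4 did not pass (limma adjusted p = 0.0762). Ly6c2, named as the defining marker of inflammatory monocytes, stood at 5.29 ± 3.07 TPM in Plcg2-/-, against 2.79 ± 1.40 TPM in Plcg2+/+ (SD, n = 3 each; limma adjusted p = 0.341). With the replicate block F10 was also higher (limma adjusted p = 0.0398) and 2 monocyte genes were lower, and after median-of-ratios scaling 1 was lower. Leaving out 1 library gave 3 to 6 higher and 0 lower.

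Homeostatic microglia markers moved both ways. Of 12 tested 3 rose and 2 fell, and their median log2 fold change was 0.11. The receptor genes Fcrls, P2ry13 and P2ry12 rose by 3.28, 2.34 and 2.03 (limma adjusted p = 0.000922, 0.00512 and 0.0166), while Olfml3 and Cx3cr1 fell by 3.16 and 1.27 (limma adjusted p = 0.00688 and 0.0203). The 2 lower calls were 1 without Plcg2-/- 1, Plcg2-/- 3 or Plcg2+/+ 1 and 4 without Plcg2+/+ 3. The 3 higher calls were 2 without Plcg2-/- 1, Plcg2-/- 3 or Plcg2+/+ 1.

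Among the other chemokine receptors, 6 of 22 were above the filter, and the fractalkine receptor gene Cx3cr1 was the 1 that fell with limma, with none higher at an adjusted or unadjusted p below 0.05 (0 of 6). It had 0.244 ± 0.145 TPM in Plcg2-/-, against 2.06 ± 0.803 TPM in Plcg2+/+ (SD, n = 3 each). This call was lost without Plcg2-/- 1, Plcg2-/- 3 or Plcg2+/+ 1 and with the Y-linked covariate, and 2 were lower without Plcg2+/+ 3 and after median-of-ratios scaling. Cxcr4, the receptor for Cxcl12 and the highest of these genes, had 143 ± 13.5 TPM in Plcg2-/-, against 179 ± 13.8 TPM in Plcg2+/+ (SD, n = 3 each; limma adjusted p = 0.0925). Ccrl2, an atypical receptor that does not signal, had 26.1 ± 0.401 TPM in Plcg2-/-, against 27.2 ± 3.65 TPM in Plcg2+/+ (SD, n = 3 each; limma adjusted p = 0.796).

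Ligands of the 2 receptors differed in the same libraries. Of 12 tested CC chemokine genes 5 were higher and none lower with limma (1 was lower at an unadjusted p below 0.05), with a median log2 fold change of 0.73. Ccl2 and Ccl7, ligands of Ccr2, were among the 5. Ccl2 had 91.0, 97.9 and 109 TPM in Plcg2-/- libraries and 11.7, 9.202 and 31.5 TPM in Plcg2+/+ libraries (limma adjusted p = 0.00698). Ccl7 had 51.8, 58.5 and 52.3 TPM in Plcg2-/- libraries and 1.87, 2.44 and 4.43 TPM in Plcg2+/+ libraries (limma adjusted p = 0.000717). For both genes every Plcg2-/- library was higher. The other 3 were Ccl12, also a ligand of Ccr2 in mice, Ccl8, and Ccl5, a ligand of Ccr1, with log2 fold changes of 4.88, 5.53 and 3.01 (limma adjusted p = 0.000959, 0.000959 and 0.0205). Ccl3, Ccl9 and Ccl6 are also ligands of Ccr1. Ccl3 had 133 ± 8.17 TPM in Plcg2-/-, against 138 ± 22.4 TPM in Plcg2+/+, Ccl9 had 196 ± 18.8 TPM in Plcg2-/-, against 211 ± 11.3 TPM in Plcg2+/+, and Ccl6 had 2007 ± 817 TPM in Plcg2-/-, against 1287 ± 797 TPM in Plcg2+/+ (SD, n = 3 each). None of these 3 passed (limma adjusted p = 0.841, 0.5497 and 0.360). Leaving out 1 library gave 4 to 6 CC chemokine genes higher, with 4 without Plcg2-/- 1, Plcg2-/- 2 or Plcg2+/+ 2, and 0 lower. With the replicate block Ccl4 was also higher (limma adjusted p = 0.0226).

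**Figure D4:**
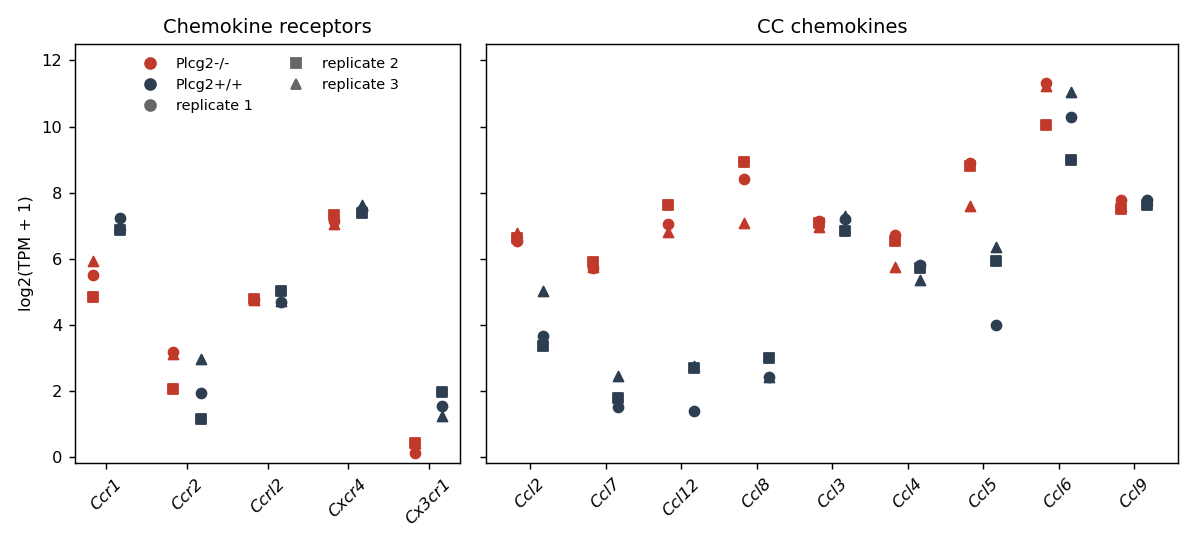
Level, as log2(TPM + 1), of 5 chemokine receptor genes and 9 CC chemokine genes in each library, Plcg2-/- to the left of Plcg2+/+ for each gene, with the symbol giving the replicate number. Ccr1, Cx3cr1 and Cxcr4 lay lower and Ccl2, Ccl7, Ccl12, Ccl8 and Ccl5 higher in all Plcg2-/- libraries, while Ccr2, Ccrl2, Ccl3, Ccl4, Ccl6 and Ccl9 overlapped.

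Genes that work beside the single markers were counted too. Of 18 tested genes of clathrin uptake and scavenging, the setting in which Dab2 acts, 4 rose and 2 fell. Over all tested genes 15.6% rose and 5.31% fell. The median log2 fold change of the 18 was 0.07, against 0.19 for all tested genes, so the list as a whole did not stand out. The AP-2 adaptor genes Ap2m1 and Ap2a2 and the clathrin accessory gene Eps15 rose by 0.64, 1.04 and 0.61 (limma adjusted p = 0.0115, 0.0138 and 0.0143). The scavenger receptor genes Cd36 and Lrp1 fell by 2.71 and 1.03 (limma adjusted p = 0.00166 and 0.0135). The 4 higher calls were 0 without Plcg2-/- 1, 1 without Plcg2-/- 3 and 2 without Plcg2+/+ 1, after quantile normalization or with the Y-linked covariate, and the 2 lower calls were 1 without Plcg2-/- 3.

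Of 10 tested folate genes 3 rose, among them Shmt2 by 0.71 and Mtr by 0.78 on the log2 scale (limma adjusted p = 0.0114 and 0.0378), and none fell (0 at an unadjusted p below 0.05). Shmt2 and Mtr are enzymes of folate-dependent carbon transfer. The folate carrier gene Slc46a1 did not pass (limma adjusted p = 0.147) and was lower with the replicate block (0.0328). Leaving out any 1 library but Plcg2-/- 2 gave 2 higher, and quantile normalization gave 1. Of 10 tested relatives of F13a1 and clotting genes, Tgm1, a transglutaminase, rose by 1.20, and Plau, Procr, F3 and Tfpi fell by 1.55, 2.97, 1.93 and 0.81 (highest limma adjusted p of the 5 genes = 0.0154). Plau encodes urokinase, F3 tissue factor and Tfpi its inhibitor. The 1 higher call was 2 without Plcg2-/- 2 or Plcg2+/+ 3 and 3 with the replicate block. Of 6 other genes of carbonyl-reducing enzymes, listed beside Cbr2, none passed with limma (2 were higher at an unadjusted p below 0.05). Akr1a1 was the highest expressed of the 6 (limma adjusted p = 0.0567), and 1 gene was higher without Plcg2+/+ 3.

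The 10 neuron genes summed to 5.74 to 12.8 TPM in Plcg2-/- and 3.98 to 14.9 TPM in Plcg2+/+ libraries, and the 10 astrocyte genes to 43.3 to 59.8 TPM in Plcg2-/- and 30.5 to 60.8 TPM in Plcg2+/+. The 10 meningeal and fibroblast genes summed to 3.06 to 22.1 TPM in Plcg2-/- and 4.15 to 20.0 TPM in Plcg2+/+, and the 10 lymphocyte genes to 2.45 to 6.06 TPM in Plcg2-/- and 1.24 to 1.94 TPM in Plcg2+/+. Without Cd4, the 1 lymphocyte gene that passed the filter and was called higher (limma adjusted p = 0.00902), the other 9 summed to 0.416 to 0.506 TPM in Plcg2-/- and 0.983 to 1.74 TPM in Plcg2+/+. The 10 oligodendrocyte genes summed to 93.2 to 127 TPM in Plcg2-/- and 70.7 to 138 TPM in Plcg2+/+, and the 10 neutrophil genes to 85.7 to 98.5 TPM in Plcg2-/- and 38.1 to 93.2 TPM in Plcg2+/+. The receptor gene Csf3r was called higher among the neutrophil genes (limma adjusted p = 0.00221), and the other 9 summed to 25.6 to 47.3 TPM in Plcg2-/- and 19.5 to 75.2 TPM in Plcg2+/+. Aldh1l1 of astrocytes and Cnp of oligodendrocytes were also higher and Cspg4 lower (limma adjusted p = 0.0282, 0.00280 and 0.00141). The Aldh1l1 call was lost without Plcg2-/- 1, Plcg2-/- 3, Plcg2+/+ 1 or Plcg2+/+ 2, with no filter and with the Y-linked covariate. The 10 dendritic cell genes summed to 8.72 to 11.1 TPM in Plcg2-/- and 21.4 to 27.6 TPM in Plcg2+/+. Of these Clec9a and Batf3 fell (limma adjusted p = 0.000973 and 0.0169), with 1 call left without Plcg2-/- 1, Plcg2-/- 3 or Plcg2+/+ 1, and Flt3 stayed below 1 TPM. Their part in the results was not tested.

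By likeness of profile, measured as the root-mean-square difference of centred log2(TPM + 1) over the 6 libraries, the genes closest to Dab2 were Mllt3 and Itga4 (0.0939 each). The gene closest to Pf4 was Tlr9 (0.220). Those closest to Cbr2 were Klra2 and P2ry12 (0.174 and 0.205), and to Ccr1 Xylt1 and Pkdcc (0.216 and 0.224). Ccr2 lay closest to Ccl6 and Cd300lf (0.146 and 0.172). Among the genes closest to Folr2 was Cdk18, at a larger difference of 0.384.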

How the data were processed

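RNA of 6 libraries was measured. The authors deposited TPM values, 1 row for each of 54347 genes, which sum to 1000000 in each library. The submitters' processing notes name the build GRCm38.p6 and the tools R 4.0.4, DESeq2 1.30.1 and Salmon 1.3.0; the sources used here do not give the annotation release or strand setting. TPM are not counts, so no count model was fitted, and the depth per sample is unknown.

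Groups and replicate numbers were read from the titles. Genes with a mean of at least 1 TPM were tested on log2(TPM + 1), two-sided, with limma 3.58.1 in R 4.3.3 (prior variance following the mean, degrees of freedom 4 residual and 2.97 prior) and Benjamini-Hochberg adjustment over all 12652 tested genes, at 0.05. The test was checked on simulated data. Same-numbered libraries of the 2 genotypes deviated together from their genotype means (correlations 0.295, 0.193 and 0.147). Libraries with different numbers had correlations of -0.195 to 0.00369. The latter are not separate evidence, since deviations from a genotype mean cancel within the genotype for each gene. From the data and the titles, the replicate numbers may thus pair the samples, but the labels do not say what a number marks. Ddx3y did not match within these pairs. It had 16.98, 0.213 and 0.229 TPM in Plcg2-/- 1 to 3, against 0.0253, 22.9 and 30.0 TPM in Plcg2+/+ 1 to 3. The main fit did not pair the samples, and its adjusted p-values are those given unless another setting is named. The replicate block, which pairs them, was kept as an alternative.

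The 9 genes and the other lists were chosen with earlier results of these data known. Named genes were the 9 and Plcg2, from each other list up to 5 called genes with the smallest p and up to 3 highly expressed ones that did not pass, and the 2 most alike genes of each (a few genes under this rule are not reported here); defining markers and single calls outside this rule are named as such. Positions come from GENCODE M21, which holds 53307 of the identifiers, and promoters from RefSeq on GRCm38.p6. Shared words of 31 bases were counted over GENCODE M21 transcripts. Python 3.11.15, pandas 2.3.3, numpy 2.4.6 and matplotlib 3.10.9 were used. Alternatives changed the pseudocount, filter, scaling, prior variance, block, covariate and libraries. Those for F13a1 with no filter were chosen after seeing the data.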

Additional observations from a re-analysis of the deposited data

How the results depend on the processing

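Among the 9 genes, the counts of 3 higher and 1 lower stayed within 2 to 3 higher and 1 lower under every alternative run. No log2 fold change of the 6 tested genes changed sign. The genes behind the count were not always the same. With no filter the 3 higher were Dab2, Pf4 and F13a1 (limma adjusted p = 0.0105 for F13a1), and Cbr2 did not pass (0.0704). The calls of Pf4, Dab2 and Ccr1 held under 18 of 18 alternatives, with log2 fold changes of 1.78 to 2.23, 1.16 to 1.62 and -1.91 to -1.34. Cbr2 was called in 11 of 18, at 1.64 to 2.94. Folr2 and Ccr2 were not called under any (lowest limma adjusted p = 0.0568 and 0.0708), with log2 fold changes of -1.58 to -0.50 and 0.32 to 1.24; Ccr2 had no value at a mean of at least 5 TPM. The replicate block changed no call of the 6 genes; it gave 2483 genes higher and 815 lower over all genes.

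Over all genes, 1971 were higher and 672 lower. Leaving out 1 library gave 559 to 2106 higher and 276 to 644 lower. Higher calls were 1226 with no filter, 959 after quantile normalization, 975 with median-of-ratios scaling, 1223 without mitochondrially encoded genes, 1104 with the replicate block and median-of-ratios scaling and 842 with the Y-linked covariate. Lower calls were 1031 after quantile normalization, 1127 with the replicate block and median-of-ratios scaling and 375 with the covariate. The cause was not tested, beyond the smaller number of libraries or wider set of genes that a setting itself has. TPM without depth limits what can be said of F13a1, Cd163 and Lyve1.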
